A study of Mus musculus with 14 samples.

Results

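The genes described here are 36 named mouse genes of DNA replication and S phase, followed through every library of a study of adult neural stem cells. Membership is a list of names and uses no measured value, though earlier results of these data were known when the list was made. The culture tables list 27998 genes and hold all 36. The fresh cell tables list 13288 and 13338 genes and hold 35, and the immunoprecipitation table lists 27144 genes and holds 35. The gene left over is Cdt1, which was not analysed in the fresh cells or the precipitates. By role they are 6 subunits of the MCM helicase (Mcm2 to Mcm7), 5 genes of origin recognition and licensing (Orc1, Orc6, Cdc6, Cdt1, Dtl), 6 of helicase activation (Mcm10, Cdc45, Gins1, Gins2, Gins3, Clspn), 4 of the polymerases and primase with their single-strand binding partner (Pola1, Prim1, Pole, Rpa2), 6 of the sliding clamp, its loader and Okazaki fragment joining (Pcna, Rfc2, Rfc3, Rfc4, Fen1, Lig1), 5 of nucleotide supply and uracil removal (Rrm1, Rrm2, Tyms, Dut, Ung) and 4 of histone supply and chromatin assembly (Slbp, Chaf1a, Chaf1b, Hells).

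Before a cell copies its genome, the origin recognition complex, Cdc6 and Cdt1 load the ring of MCM proteins onto origins, and Mcm10, Cdc45 and the GINS complex then turn the ring into a moving helicase. Polymerase alpha with primase lays down primers, Pcna clamps the main polymerases to DNA, and Fen1 and Lig1 join the Okazaki fragments. Many of these genes are targets of E2F transcription factors, so their mRNAs rise as a cell passes from G1 into S phase. In the subventricular zone of the adult brain most stem cells are quiescent, and dividing progenitors lie between them and the migrating neuroblasts.

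The study holds 14 samples from neural stem cells of the subventricular zone of adult mice, whose age, strain and sex are not in the labels. Single-cell 3′ libraries came from wildtype cells kept in culture with BMP4 for 3 days, from wildtype cells kept with EGF for 3 days, and from untreated, freshly isolated cells of wildtype and of Aplp1-/- mice. A pair of hash tag samples marks the cells of 3 mice in each fresh library, with tags carried by anti-CD45 and anti-MHC class I antibodies. Bulk RNA of cultured neurospheres gave 8 further samples: wildtype input, wildtype precipitate with control IgG, wildtype precipitate with an antibody to CPEB4, an mRNA-binding protein that acts on poly(A) tails, and the CPEB4 precipitate of cells labelled CPEB4-/-, with 2 replicates of each. The labels do not say whether those replicates are separate cultures, so their p-values measure only the spread between these samples.

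The BMP4 library held 887 cells and 17313999 counts and the EGF library 1410 cells and 33603623 counts. The fresh libraries were far shallower, with medians of 364 counts per cell over 2209 wildtype cells and 424 over 1879 cells labelled knockout. Levels are given as CPM, counts of a gene scaled to the same total in every library. Aplp1 was at 217 CPM in the wildtype fresh library and at 44.0 CPM in the library labelled knockout. The RIP libraries held 10054346 to 17466296 counts. The Cpeb4 mRNA had 3109 and 1025 counts when CPEB4 was precipitated from wildtype cells, against 4825 and 1285 for the knockout label, so the mRNA gives no support to that label, and these libraries are called labelled knockout throughout. Only 13 cell barcodes were shared by the fresh libraries, and their removal left every ratio between cell classes within its counting interval.

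Promoter sequences are shown first because E2F letters, which the choice of genes did not use, were more frequent in these promoters than in those of all genes. Promoters of 300 bases, 250 before and 50 after the start, were found in the RefSeq table (GRCm38.p6) for 31 of the 36 genes. The 4 E2F letter strings searched on both strands were TTTCCCGC, TTTCGCGC, TTTGCCGC and TTTGGCGC. At least 1 of them stood in a promoter of 14 of the 31 genes (45.2%), against 2.61% of the 27025 genes searched. Promoters of 1 chromosome, which holds none of the 36 genes, were left out of the search. The 14 were Mcm3, Mcm5, Mcm6 and Mcm7 of the helicase, Orc1, Cdc6, Cdt1 and Dtl of licensing, Gins3 and Clspn, and Pola1, Rfc3, Lig1 and Hells, and no gene of nucleotide supply was among them. For each role with a match, the gene with the largest culture ratio among its genes with a match is shown. Each is given as 30 bases read 5′ to 3′ on the gene's strand, with the E2F letters in capitals.
Mcm6: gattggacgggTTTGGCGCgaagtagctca
Dtl: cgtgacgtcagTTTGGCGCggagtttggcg
Clspn: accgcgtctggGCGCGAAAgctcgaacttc
Pola1: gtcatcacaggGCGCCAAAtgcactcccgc
Lig1: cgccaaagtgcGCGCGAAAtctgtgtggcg
Hells: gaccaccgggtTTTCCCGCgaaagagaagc

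These windows lie at chr1:128359734-128359763 (minus strand, Mcm6), chr1:191575534-191575563 (minus, Dtl), chr4:126556990-126557019 (plus, Clspn), chrX:93632275-93632304 (minus, Pola1), chr7:13278841-13278870 (plus, Lig1) and chr19:38930917-38930946 (plus, Hells). In Clspn, Pola1 and Lig1 the letters stand on the strand opposite to the gene. The first E2F base was 47 bases before the start in Mcm6, 8 before it in Dtl and 62 before it in Hells, and the match lay after the start in Clspn and Lig1. The CCAAT letters were in 21 of the 31 genes (67.7%, against 41.1% of all), and TTTGAA, the CHR letters known from G2/M genes, were in 4 of the 31 (12.9%, against 20.2%). No motif string contains another, and a match is a match of letters, not a shown binding site. Genes with the E2F letters had a median EGF over BMP4 ratio of 5.52 (n = 14) and those without a median of 4.79 (n = 17). For CCAAT the medians were 4.25 with and 6.79 without the letters, and for TTTGAA 2.88 and 5.55.

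All 36 genes were at least 2-fold higher in the EGF culture than in the BMP4 culture. Of the 14502 genes whose counts in the cultures came to at least 10, 15.4% were. Of the 36, 22 were at least 4-fold higher, against 6.11% of all genes. The median log2 ratio of BMP4 over EGF was -2.33 for the 36 and 0.15 for all genes. Summed, the 36 genes had 5933 counts in the BMP4 library (343 CPM) and 48796 in the EGF library (1452 CPM), a ratio of 4.24 (95% interval 4.12 to 4.35). Each culture is a single library, so there is no test between them, and intervals cover counting error only. A sum over a library cannot tell apart fewer cells that carry a transcript and fewer transcripts per cell, which the values per cell below address.

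**Figure D1:**
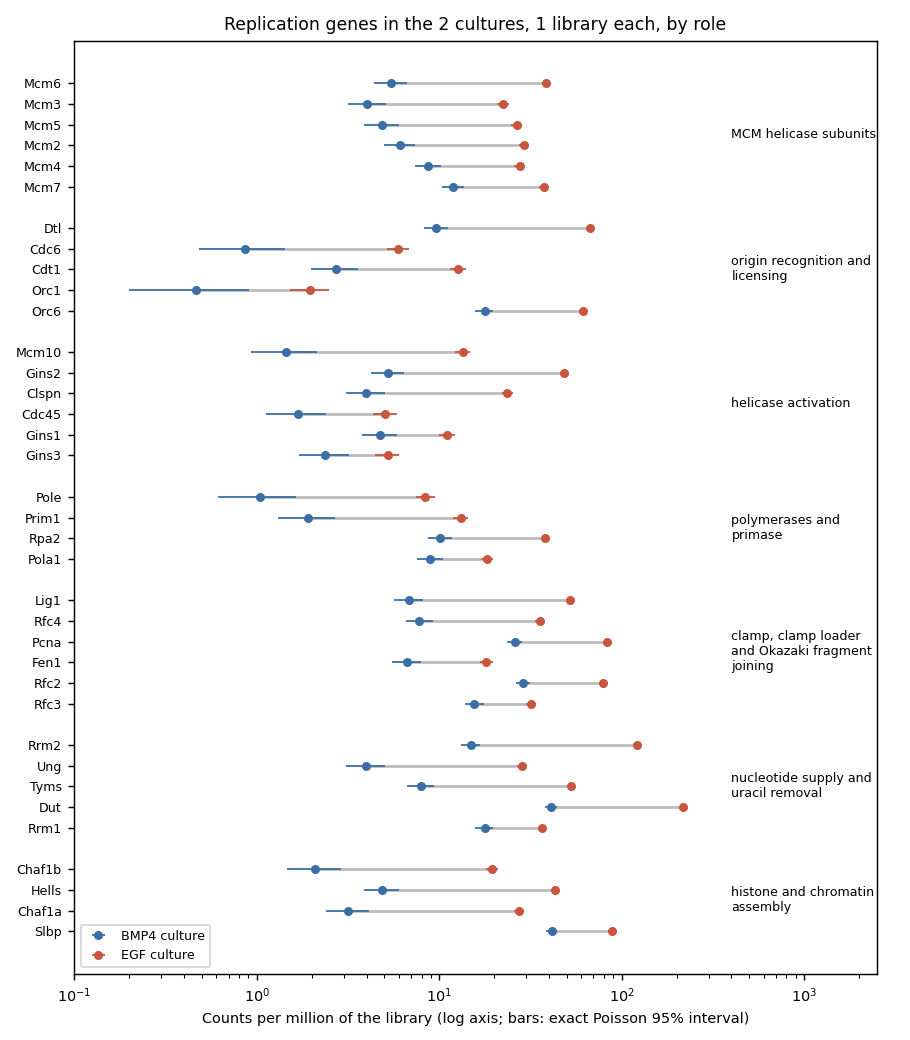
Level of each of the 36 genes in the BMP4 culture (blue) and the EGF culture (red), in CPM of the library on a log axis, grouped by role and ordered by ratio within a role, with exact Poisson 95% intervals. Every red point lies to the right of its blue point, by 2.04-fold in Rfc3 and Pola1 and by 9.42-fold in Chaf1b.

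The MCM helicase subunits, which unwind DNA at the fork, summed to 41.1 CPM with BMP4 and 182 CPM with EGF. Mcm6 had 94 counts with BMP4 and 1297 with EGF (5.43 and 38.6 CPM), a ratio of 7.11 (5.76 to 8.86) that was the largest of the 6. Mcm7 had the smallest, from 207 to 1256 counts (12.0 and 37.4 CPM), a ratio of 3.13 (2.70 to 3.64). Their counting intervals did not overlap, so in these libraries the counts of the subunits did not shift by an equal factor. Ap4m1 and miRNA genes overlap Mcm7, and its counts may hold their reads. Mcm4, at 3.16, lay close to Mcm7, and Mcm2, Mcm5 and Mcm3 lay between at 4.79, 5.48 and 5.55.

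In licensing, Dtl, an adaptor of the ubiquitin ligase that removes Cdt1 in S phase, had 167 counts with BMP4 and 2243 with EGF, a ratio of 6.92 (5.91 to 8.15). Cdc6, the loader of the MCM ring, was rare in both cultures, with 15 and 200 counts and a ratio of 6.87 (4.07 to 12.5). Orc6, the smallest subunit of the origin recognition complex, had 307 and 2068 counts, a ratio of 3.47 (3.08 to 3.93). Orc1 had only 8 and 66 counts, the fewest of the set, and its ratio of 4.25 has an interval from 2.04 to 10.3. Cdt1, the other licensing factor, had 47 and 426 counts and a ratio of 4.67.

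Helicase activation held a wide range. Mcm10, which is needed to start the loaded helicase, had 25 counts with BMP4 and 453 with EGF, a ratio of 9.34 (6.24 to 14.6). Within the GINS complex, whose subunits act together, Gins2 had 91 and 1616 counts, a ratio of 9.15 (7.41 to 11.4). Gins3 had 41 and 175 counts, a ratio of 2.20 (1.56 to 3.17), and Gins1 had 82 and 372, a ratio of 2.34. The counting interval of Gins2 lay above those of its partners, so in these libraries the counts of this complex moved by unequal factors. Gse1 overlaps Gins2, whose counts may hold its reads. Clspn, a mediator of the replication checkpoint, was at 5.93, and Cdc45, a part of the active helicase, at 3.02.

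Among the polymerases, Pole, the catalytic subunit of the leading strand polymerase, had 18 counts with BMP4 and 282 with EGF, a ratio of 8.07 (5.02 to 13.8). Pola1, the catalytic subunit of polymerase alpha, had 155 and 615 counts, a ratio of 2.04 (1.71 to 2.45). Prim1, the primase that works in the same complex as Pola1, stood at 6.87, and Rpa2, a subunit of the single-strand binding protein, at 3.76. Pola1 thus kept more of its EGF level in the BMP4 culture than the primase did.

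The clamp and joining genes had the smallest summed ratio of the roles, 3.27 (3.10 to 3.45). Lig1, the ligase that seals Okazaki fragments, had 118 and 1741 counts, a ratio of 7.60 (6.31 to 9.24). Rfc3, a clamp loader subunit, had 270 and 1070 counts, a ratio of 2.04 (1.79 to 2.34), while its partner Rfc4 stood at 4.58. Pcna, the clamp, had 450 and 2807 counts, a ratio of 3.21, and Fen1, the flap nuclease, was at 2.73.

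The nucleotide supply genes summed to 85.5 CPM with BMP4 and 458 CPM with EGF. Dut, which removes dUTP from the nucleotide pool, had the most counts of all 36 genes with EGF, 7327 against 710, a ratio of 5.32 (4.92 to 5.75). Rrm2, the small subunit of ribonucleotide reductase, had 258 and 4090 counts, a ratio of 8.17 (7.20 to 9.30). Rrm1, the large subunit of the same enzyme, had 307 and 1236 counts, a ratio of 2.07 (1.83 to 2.36). The counting intervals of the 2 subunits lay far apart, so in these libraries their counts moved by unequal factors. Ung, which excises uracil from DNA, stood at 7.12 and Tyms, which makes thymidylate, at 6.70.

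Of the chromatin genes, Chaf1b, a subunit of the factor that places new histones behind the fork, had 36 counts with BMP4 and 658 with EGF, and its ratio of 9.42 (6.73 to 13.6) was the largest of the 36. Chaf1a, its partner, stood at 8.59 and Hells, a chromatin remodeller, at 8.90. Slbp, which binds the end of replication-dependent histone mRNAs, had 715 counts with BMP4, the most of any member there, and 2992 with EGF, a ratio of 2.16 (1.99 to 2.34).

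Other genes of the pathway behaved less evenly. Of 42 further replication genes, 30 were at least 2-fold higher with EGF and 0 were so with BMP4, with Tk1 (thymidine kinase, 15.5) and Uhrf1 (maintenance of DNA methylation, 13.2) at the top. Rrm2b, the ribonucleotide reductase subunit induced by p53, was 1.67-fold higher with BMP4 and Rpa1 1.43-fold higher, both within 2-fold. Of 20 E2F and G1/S control genes, 12 were at least 2-fold higher with EGF, led by Ccna2 (cyclin A, 11.2) and Mybl2 (10.3). The pocket proteins Rb1 and Rbl2, which hold E2F in check, were 2.71-fold and 2.66-fold higher with BMP4. With TMM scaling every log2 ratio of BMP4 over EGF was lower by 0.20, and the directions named here were unchanged for the 36 genes. All 20 G2/M genes were at least 2-fold higher with EGF.

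Per cell, the 36 genes were spread unequally in both cultures. After every cell was thinned to 4500 counts, a BMP4 cell held a median of 1 transcript of the 36 genes together (mean 1.43 ± 2.22, SD over 887 cells) and an EGF cell a median of 5 (mean 6.30 ± 4.99, SD over 1410 cells). No transcript was found in 311 BMP4 cells (35.1%, exact interval 31.9 to 38.3) and in 91 EGF cells (6.45%, 5.23 to 7.87). Most BMP4 cells thus held few of these transcripts, with a small tail of rich cells.

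**Figure D2:**
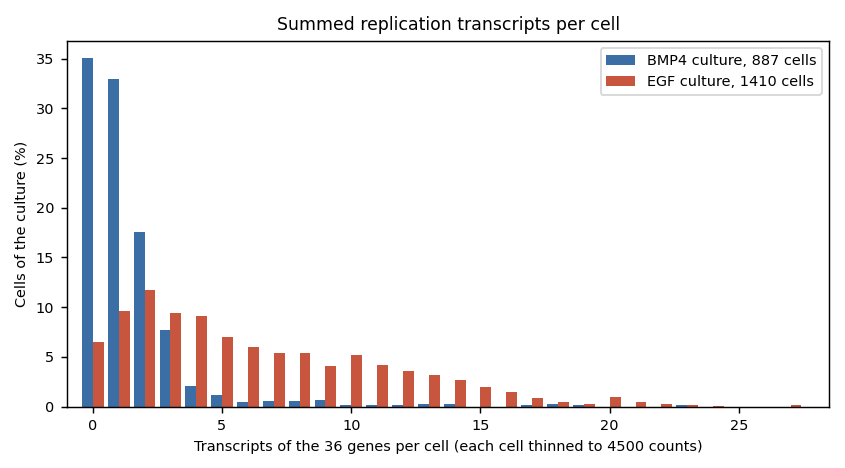
Share of cells, in percent, by the number of transcripts of the 36 genes in a cell thinned to 4500 counts, in the BMP4 culture (blue) and the EGF culture (red). BMP4 cells pile up at 0 to 2 with a tail that ends at 23, and EGF cells spread from 0 to 27 around a median of 5.

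In that tail, 12 of 887 BMP4 cells had 10 or more transcripts, against 365 of 1410 EGF cells. The richest 10% of cells held 43.0% of the BMP4 transcripts and 26.2% of the EGF transcripts. The richest BMP4 cell carried 23 and the richest EGF cell 27, and in each culture up to 18 of the 36 genes were seen in the same thinned cell. The share of cells with at least 1 transcript was 64.9% with BMP4 and 93.5% with EGF, and 94.9% and 99.6% before thinning. Cells known to lack these genes were not defined in the cultures, so the part of free RNA in these shares was not tested.

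The genes were often detected in the same cells. EGF cells were ranked by the sum of the other 35 genes, and the gene left out was higher in the upper than in the lower tertile of cells for 36 of 36 genes, by a median of 4.60-fold. The interval lay above 1 for 35, against 14% of the 10937 other genes when cells were ranked by the sum of the 36. Most BMP4 cells held so few transcripts that there the split set cells with another member transcript against cells with none, and its ratios are not comparable with those of EGF. The interval lay above 1 for 12 of the 28 members with 10 or more transcripts, against 3.37% of 10930 other genes. Rrm2 varied most between BMP4 cells, with a variance over mean of 2.29 and up to 5 transcripts in a cell, against 1.48 in EGF cells. Slbp followed at 1.89 with BMP4, with up to 9 transcripts in 1 cell, and was at 1.20 with EGF. The median variance over mean was 1.02 over all BMP4 genes and 1.03 over all EGF genes with a thinned mean of 0.02 or more. Over the members with such a mean, 17 with BMP4 and 34 with EGF, the median was 1.10 in each culture. Of these, 3 with BMP4 and 11 with EGF lay above the 90th percentile of all genes (1.16 and 1.14), so Rrm2 and Slbp were not typical of the set.

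The level of the 36 genes also depended on whether a cell carried transcripts of the 20 G2/M genes, which are not among them. Of the BMP4 cells, 37 (4.17%) had 3 or more G2/M transcripts and 727 (82.0%) had 0, and of the EGF cells 768 (54.5%) and 293 (20.8%). In cells with 3 or more, the 36 genes summed to 1540 CPM with BMP4 and 1748 CPM with EGF. In cells with 0 they summed to 238 CPM with BMP4 and 810 CPM with EGF. The ratio of EGF over BMP4 was 1.13 (1.08 to 1.20) in cells with 3 or more and 3.40 (3.25 to 3.55) in cells with 0. When cells were split by Mki67, Top2a or Cdk1 instead, it was 1.73 in positive and 3.80 in negative cells, so the size of the ratio in positive cells rests on how they are defined. An S phase cell can lack G2/M transcripts at this depth, so the second group is not a group of resting cells.

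**Figure D3:**
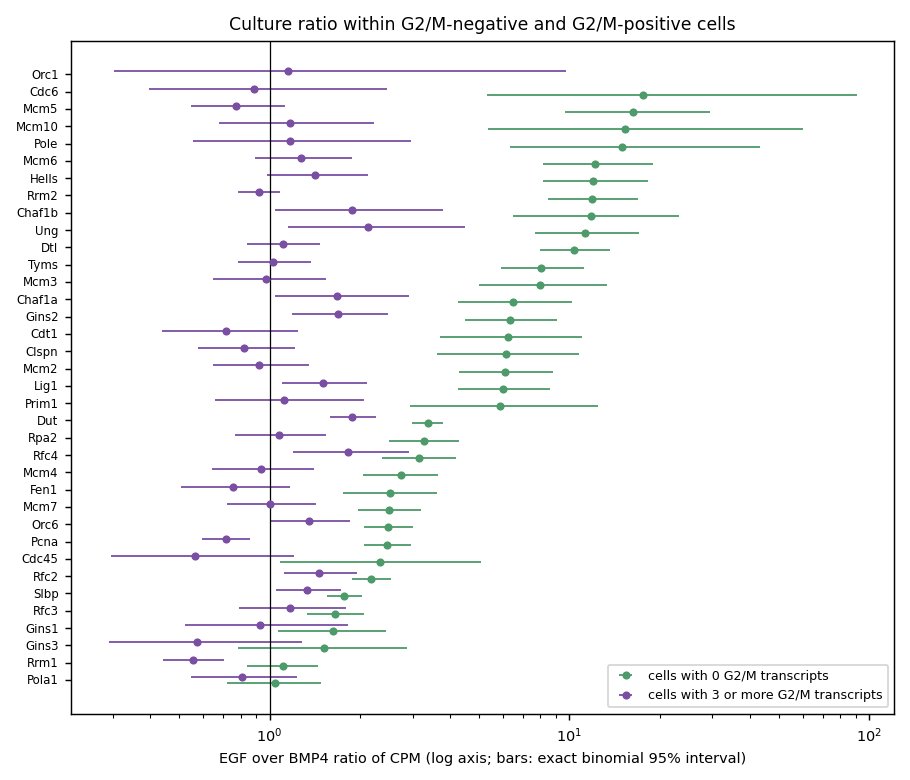
EGF over BMP4 ratio of each gene, on a log axis with exact binomial 95% intervals, in cells with 0 G2/M transcripts (green) and in cells with 3 or more (purple), ordered by the first. Purple points lie around 1 while green points reach from 1.04 in Pola1 to 17.5 in Cdc6. Orc1 has no green point because it had 0 counts in the BMP4 cells.

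Among cells with 0 G2/M transcripts, 30 of 36 genes were at least 2-fold higher with EGF, against 12.2% of all genes, and 33 had an interval above 1. Cdc6 (17.5), Mcm5 (16.3), Mcm10 (15.4), Pole (15.0), Mcm6 (12.2), Hells (12.0) and Rrm2 (11.9) had the largest ratios. At the other end, Pola1 stood at 1.04, Rrm1 at 1.11, Gins3 at 1.52, Gins1 at 1.63, Rfc3 at 1.66 and Slbp at 1.77. For Pola1, Rrm1 and Gins3 the interval held 1, so no difference between the cultures was detectable in such cells. Rrm1 and Rrm2, the subunits of a single enzyme, fell at opposite ends of this order.

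Among cells with 3 or more G2/M transcripts, 1 of 36 genes was at least 2-fold higher with EGF, against 9.64% of all genes. That gene was Ung, at 2.13. The interval lay above 1 for 10 genes and below 1 for 2, Rrm1 (0.555) and Pcna (0.714), both higher per unit of depth in the BMP4 cells. The median ratio of the 36 was 1.09. The BMP4 values rest on 37 cells of 1 library.

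Within each culture the same split separated the genes. In the BMP4 culture all 36 genes were at least 2-fold higher in G2/M-positive cells, against 12.1% of all genes, with a median of 10.8-fold. In the EGF culture 17 of 36 were, against 6.47% of all genes, with a median of 2.00-fold. There Rrm2 (4.72), Mcm10 (3.88) and Rrm1 (3.82) had the largest ratios of positive over negative cells, and Ung (0.922), Dtl (1.35), Pole (1.43) and Rfc3 (1.43) the smallest. By role, the summed ratio of positive over negative EGF cells ran from 1.56 in licensing to 2.88 in helicase activation. Between them lay the MCM subunits (1.77), the chromatin genes (1.77), the clamp genes (2.13), the polymerases (2.31) and nucleotide supply (2.70). Dtl alone held 1348 of the 3163 licensing counts in positive cells and 322 of the 654 in negative cells. Orc1, of the same role, stood at 3.28 from 51 and 5 counts.

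In freshly isolated cells the 35 genes were highest in cells with progenitor markers. Cells were classed by markers, with 2 or more genes of a list detected and more than of any other list. Each list names 10 genes, and of these the libraries held 10 quiescent, 9 progenitor and 8 neuroblast markers. Oligodendrocyte markers numbered 10 in the wildtype library and 6 in the other. The part of unequal list lengths in the classes was not tested. None of the 36 genes is a marker. In the wildtype library, cells with quiescent stem cell or astrocyte markers (Slc1a3, Aqp4, Aldoc and others) had 517 member counts over 1475 cells, or 782 CPM (716 to 853). Progenitor-marker cells (Dlx2, Egfr and others) had 401 counts over 112 cells, or 3452 CPM (3123 to 3807), and neuroblast-marker cells (Dcx, Stmn2, Tubb3 and others) 276 counts over 223 cells, or 1947 CPM. The library labelled knockout gave 1016, 3367 and 2040 CPM in the same order. Progenitor-marker cells stood 4.41-fold above quiescent-marker cells in the wildtype library and 3.31-fold above them in the other.

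**Figure D4:**
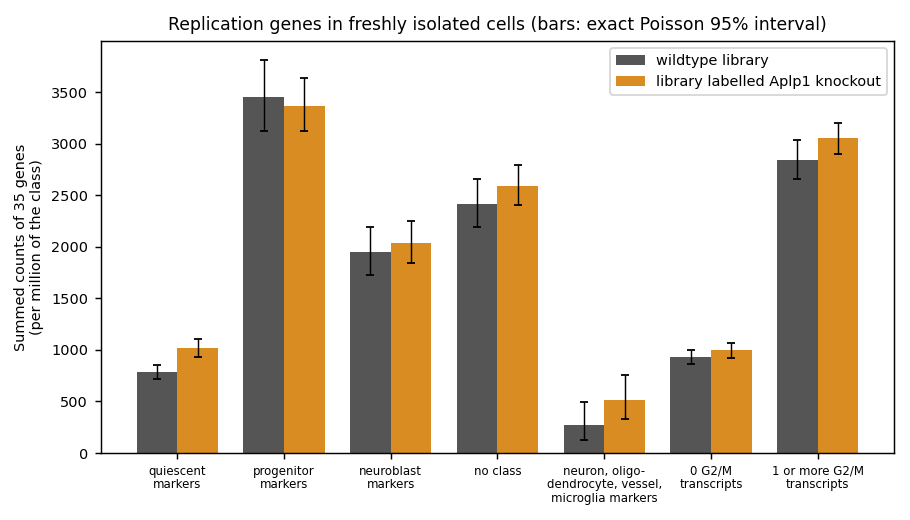
Summed level of the 35 genes, in CPM of each class of fresh cells, in the wildtype library (grey) and the library labelled Aplp1 knockout (orange), with exact Poisson 95% intervals. In both libraries progenitor-marker cells are highest, neuroblast-marker cells intermediate and quiescent-marker cells lower, and cells with 1 or more G2/M transcripts stand 3.05-fold and 3.07-fold above cells with 0.

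Cells with markers of mature neurons, oligodendrocytes, endothelium or microglia together held 10 member counts in the wildtype library (270 CPM over 56 cells) and 25 in the other (509 CPM over 67 cells). Both pooled values lay below the quiescent-marker cells, but the parts were uneven. Wildtype endothelial-marker cells held 4 counts over 7 cells (1440 CPM, 392 to 3688), and no other part lay above the quiescent-marker cells of its library. In the library labelled knockout, 20 cells with mature neuron markers held 21 of the 25 counts (723 CPM, 448 to 1105). Cells that reached no class held 2419 and 2591 CPM, above the neuroblast level. Quiescent-marker cells held some progenitor marker counts, 1162 and 1619 CPM against 5458 and 5089 in progenitor-marker cells, and whether mixed droplets have a part in the member level there was not tested. The classes also differed in depth, with a median of 331 counts per quiescent-marker cell and 796 per progenitor-marker cell in the wildtype library.

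The counts of single genes were tested on sums per library and class with the edgeR quasi-likelihood test, with library as a block and Benjamini-Hochberg adjustment over 3714 genes. Each class has a single sum from the wildtype library and another from the library labelled knockout. The p-values and standard errors of these contrasts thus do not measure the spread between mice. Of the 35 genes, 19 passed the filter on low counts, which a rare gene passes only through a class where it is high. Between progenitor-marker and quiescent-marker cells 10 of the 35 were higher and 0 lower, where 10.3% of all genes tested were higher and 16% lower. Between neuroblast-marker and quiescent-marker cells 5 were higher and 0 lower, against 12.4% and 19.2%. DESeq2 on the same sums called 6 and 2.

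Rrm2 passed under every alternative run, in both contrasts. It had 88 counts in wildtype quiescent-marker cells, 92 in progenitor-marker and 64 in neuroblast-marker cells, or 133, 793 and 452 CPM, and in the library labelled knockout 195, 854 and 850 CPM. Both libraries had the lowest value in the quiescent class and overlapped in no class with it. Rrm2 rose by a log2 fold change of 2.19 ± 0.28 (SE) in progenitor-marker cells (adjusted p = 8.9e-06, edgeR) and of 1.98 ± 0.28 in neuroblast-marker cells (adjusted p = 2.2e-05, edgeR).

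Of the helicase, Mcm6 had 53.0 and 83.0 CPM in quiescent-marker cells of the wildtype and the labelled knockout library, and 396 and 315 CPM in progenitor-marker cells. Its log2 fold change there was 2.22 ± 0.41 (adjusted p = 0.00055, edgeR), and in neuroblast-marker cells, at 184 and 121 CPM, it did not pass (1.16, adjusted p = 0.0502, edgeR). Mcm3 rose from 18.2 and 13.5 CPM to 129 and 125 CPM in progenitor-marker cells (2.84 ± 0.71, adjusted p = 0.0060, edgeR), and was at 28.2 and 15.8 CPM in neuroblast-marker cells. The latter did not differ detectably from the quiescent class (0.45 ± 0.85, adjusted p = 0.73, edgeR). Mcm2 rose in both contrasts, by 2.73 and 2.50 on the log2 scale, from 8 and 3 counts.

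Of helicase activation, Gins2 rose from 62.1 and 38.6 CPM in quiescent-marker cells to 190 and 190 CPM in progenitor-marker cells (1.83 ± 0.48, adjusted p = 0.0079, edgeR) and to 205 and 79.2 CPM in neuroblast-marker cells (1.43, adjusted p = 0.031, edgeR). Lig1, the ligase, rose by 2.15 and 1.35 on the log2 scale in the same contrasts, from 33.3 and 54.0 CPM. Dut rose by 1.49 and 1.57, with 207 and 150 CPM in progenitor-marker and 191 and 142 CPM in neuroblast-marker cells. In the reported fit Pcna (1.77), Rrm1 (2.13) and Fen1 passed only in the progenitor contrast, and the difference between the contrasts was not tested. Over the settings run, Fen1 passed in the neuroblast contrast in 2 of 6 and Mcm6 in 3 of 7. Dtl, not called in the reported fit, passed in the progenitor contrast in 1 of 7. Fen1 had 2 and 0 counts in quiescent-marker and 7 and 11 in progenitor-marker cells, too few for a fold. With DESeq2, Mcm2, Pcna, Rrm1 and Dut lost the progenitor call (adjusted p 0.064 to 0.091), and Mcm2, Gins2 and Lig1 the neuroblast call (0.080 to 0.14). Gins2 lost both calls, and Dut the neuroblast call, when a class needed 3 or more markers (0.052 to 0.073). In cells with 300 or more counts Mcm2 (0.058) and Lig1 (0.099) lost the neuroblast call, as did Lig1 with no filter (0.077).

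Members that did not pass include Rfc4, at 84.8 and 98.4 CPM in quiescent-marker cells and 60.3 and 130 CPM in progenitor-marker cells, and Mcm7, at 16.7 and 61.7 against 34.5 and 110 CPM. Across fresh cells the counts of Rfc4 followed those of the neighbouring gene Eif4a2 (r = 0.87) and those of Mcm7 followed its neighbour Cops6 (r = 0.76), over 4088 cells, so these values may hold reads of the neighbour. Chaf1a followed Ubxn6, which overlaps it, at r = 0.67. Without the 3 genes, progenitor-marker cells stood 4.89-fold and 3.70-fold above quiescent-marker cells. Of the 42 further replication genes 17 could be tested, and 8 rose in progenitor-marker cells and 0 fell, with Cdc7 (3.35), the kinase that fires origins, and Topbp1 (2.87) the largest, and 2 rose in neuroblast-marker cells, Uhrf1 (2.01) and Wdhd1 (1.26). Of the E2F and G1/S genes only Ccna2 rose (1.95, progenitor contrast), among 6 that could be tested.

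Between the fresh libraries the 35 genes summed to 1441 CPM in the wildtype and 1884 CPM in the library labelled Aplp1 knockout, 1.31-fold higher (1.23 to 1.39). If the fresh counts are reads rather than molecules, these intervals are too narrow. Within quiescent-marker cells the ratio was 1.30 (1.15 to 1.47), within progenitor-marker cells 0.975 (0.861 to 1.11) and within neuroblast-marker cells 1.05 (0.896 to 1.23). Progenitor-marker cells were 5.07% of the wildtype library and 8.57% of the other, a share that moves with the sum over all cells and whose part in it was not tested. By gene, 6 of 35 intervals lay above 1 and 0 below, where 13.2% and 13% of the 10311 genes with 10 or more counts did. They are Gins3 (5 against 31 counts), Mcm5 (23 against 75), Mcm7 (27 against 82), Rrm2 (372 against 627), Lig1 (77 against 120) and Orc1. Orc1 had 0 counts in the wildtype library and 10 in the other, at least 3.08-fold higher against a floor of 3 counts in the library. Its exact interval starts lower, at 2.07. These are single libraries and have no test.

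Mice give a different order. Per mouse the 35 genes stood at 1564, 1262 and 833 CPM in wildtype mice and at 607, 1020 and 1348 CPM in mice labelled knockout (1220 ± 367 and 992 ± 371, SD, n = 3 each). The groups overlapped, and the mean of the mice labelled knockout was the lower, against the order of the whole libraries. Only cells with a clear tag count here, which were 463 and 406 cells. Aplp1 had 4, 15 and 22 counts in the wildtype mice and 0, 7 and 0 in the others, so the label of the mouse of tag 2, at 1020 CPM, is in doubt. The 1473 cells labelled knockout without a clear tag held 47 Aplp1 counts, so leaving out tag 2 keeps most of the Aplp1 counts of that library. Without the mouse of tag 2 the labelled knockout mean was 978 CPM, and without its cells the whole library stood 1.35-fold above the wildtype. The 3 mice of each label share 1 library, so a test between them cannot tell label and library apart. In the edgeR test over the 6 mice, 1109 genes passed the filter and 0 were called (0% in each direction, 62 at an unadjusted p under 0.05, 1 by DESeq2). Rrm2, the only member among those 1109, had 8, 11 and 13 counts in wildtype mice and 6, 15 and 17 in the others, a log2 fold change of 0.20 ± 0.57 (SE; adjusted p = 0.996, edgeR), and these values overlapped.

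In the precipitates the question was which of these mRNAs are bound by CPEB4, and the test of that is wildtype against the labelled knockout and against IgG. In neither was any member called. Of 17062 genes tested with edgeR over the 8 libraries, 0 (0%) passed in wildtype CPEB4 against the labelled knockout, with 137 at an unadjusted p under 0.05 and 0 by DESeq2. Among the 35 genes 0 had an unadjusted p under 0.05, and their median log2 fold change was -0.28 against -0.06 for all genes. Against IgG, 0 of 17062 passed (1360 at an unadjusted p under 0.05, 3 higher and 10 lower by DESeq2, none of them a member), and the median was -0.40 for the 35 genes and 0.00 for all. With library totals as the scale the medians were 0.12 and 0.63, and those of all genes 0.19 and 1.02. Without labelled knockout replicate 2 the median against the labelled knockout was -0.04, with 1403 genes and 1 member at an unadjusted p under 0.05. Without replicate 1 it was -0.37, with 2886 genes and 6 members.

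Against input, by contrast, 18 of the 35 genes were lower in the wildtype CPEB4 precipitate and 3 were higher, where 27.6% of all genes tested were lower and 27.4% higher. In the control IgG precipitate 7 of the 35 were lower than input and 1 was higher, against 15.6% and 18.2% of all genes. These 2 contrasts share their input samples. Leaving out an input or precipitate library left 10 to 14 of the 21 calls in number for CPEB4 and 0 to 1 of the 8 for IgG. Precipitates and inputs differed in composition, since the 10 most abundant genes held 3.92% and 4.50% of the input counts and 32.0% to 64.2% of the precipitate counts, and their part in the contrast was not tested. With library totals as the scale, the median of all genes was -1.57 for CPEB4 and -2.62 for IgG, against -0.09 and -0.13 with TMM, and 29 members were lower and 0 higher than input in the CPEB4 precipitate.

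Fen1, the flap nuclease, was among the most depleted. It stood at 24.6 and 26.8 TMM-scaled CPM in input, 7.43 and 5.76 in IgG, 2.17 and 4.82 in wildtype CPEB4 and 2.73 and 4.28 in labelled knockout CPEB4 precipitates. All 6 precipitates lay below both inputs, whatever the antibody or label. The log2 fold change of wildtype CPEB4 over input was -2.88 ± 0.47 (adjusted p = 0.0013, edgeR). Rpa2 (-2.68), Dut (-2.44), Rrm2 (-2.32) and Rfc3 (-2.26) followed, and Mcm2, Mcm3, Mcm5, Mcm6 and Mcm7 of the helicase lay between -1.58 and -0.92. Ung (-1.92), Rfc2 (-1.72), Orc6 (-1.58) and Gins2 (-1.49) were also lower, each called in 9 or more of 11 settings. The genes named here are not all of those that were lower.

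Pola1 went the other way. It had 12.3 and 12.1 CPM in input, 56.7 and 93.7 in IgG, 156 and 79.4 in wildtype CPEB4 and 225 and 63.0 in labelled knockout CPEB4 precipitates. Every precipitate was above both inputs, and the precipitates overlapped one another. Its log2 fold change over input was 3.27 ± 0.65 in the CPEB4 precipitate (adjusted p = 0.0027, edgeR) and 2.63 ± 0.63 in IgG (adjusted p = 0.014, edgeR). The IgG call was lost without IgG replicate 2 (2.18, adjusted p = 0.11), input replicate 1 (2.58, 0.084) or input replicate 2 (2.55, 0.088). Against the labelled knockout it was -0.29 ± 0.59, with an adjusted p of 1 (edgeR).

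Orc1, the origin recognition subunit, rose from 3.08 and 2.52 CPM in input to 11.9 and 10.6 in wildtype CPEB4 precipitates (2.00 ± 0.40, adjusted p = 0.0027, edgeR), with 5.11 and 7.20 in IgG. Hells rose from 10.7 and 11.4 to 23.8 and 19.9 CPM (0.98 ± 0.33, adjusted p = 0.030, edgeR), with 20.4 and 20.6 in IgG. With library totals none of the 3 passed, and Hells turned to -0.50, while Pola1 stayed at 1.82 and Orc1 at 0.53. Leaving out either input or either wildtype CPEB4 library also ended the call of Hells, with values of 0.80 to 1.07, and kept those of Pola1 and Orc1. The fit with no filter lost the call of Hells too, so it was called in 5 of 11 settings, and Pola1 and Orc1 in 10 each. Prpf38a and a lncRNA gene overlap Orc1, whose counts may hold their reads.

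The order of the genes against input followed the span of the gene, from start to end with introns. This was looked at after the values were seen. Pola1 spans 327622 bases of chromosome X, by far the most of the set. Pole, Orc1 and Hells, with 51150, 40326 and 40209 bases, come next, and the median of the 35 is 16234. The 18 genes lower in the CPEB4 precipitate span at most 28131 bases, with a median of 11652. Across the 35 genes, which share these libraries, Spearman's rho between span and log2 fold change was 0.80 for CPEB4 and 0.72 for IgG, and it was 0.64 and 0.55 across 15521 genes of all kinds with a span. Genes above 40000 bases had a median log2 fold change over input of 1.48 in the CPEB4 and 0.98 in the IgG precipitate, and the others -0.91 and -0.70. A like order was therefore present across genes in general.

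**Figure D5:**
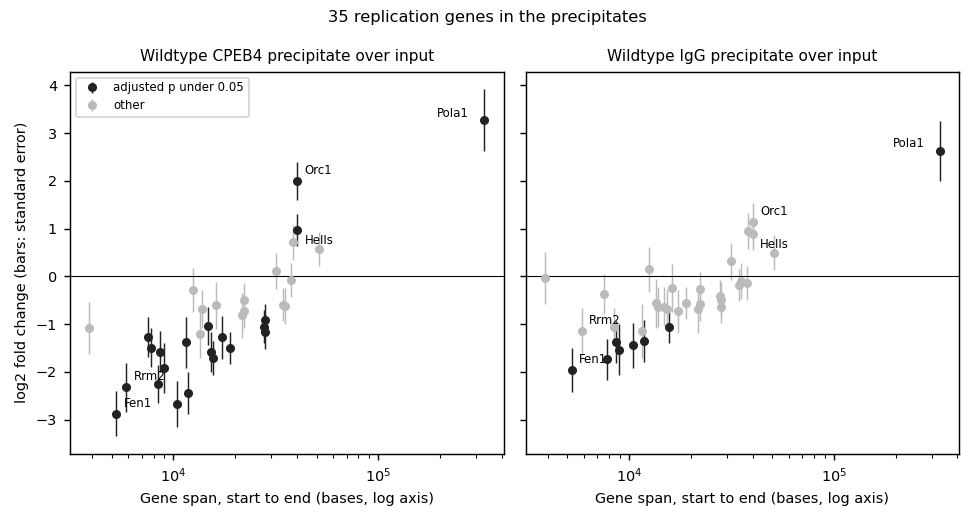
Log2 fold change over input of the 35 genes in the wildtype CPEB4 precipitate (left) and the IgG precipitate (right) against the span of the gene in bases on a log axis, with standard errors, black where the adjusted p is under 0.05. In both panels Fen1 lies lowest and Pola1, the longest gene, highest.

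Among the other lists, 4 of the 42 further replication genes were higher and 14 lower in the CPEB4 precipitate than in input, with Prim2 (2.13) and Atad5 (1.87) highest and Pold4 (-3.40) and Pole3 (-2.54) lowest. Of the 20 E2F and G1/S genes 5 were higher and 5 lower, with E2f3 (2.43) and Tfdp2 (2.30) highest and Ccne1 (-1.97) and Ccna2 (-1.89) lowest. Against the labelled knockout and against IgG, 0 genes of either list passed.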

How the data were processed

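All files hold raw counts, whole numbers that the authors deposited for genes or hash tags by cell, or for genes by bulk library. Cell Ranger, Bowtie2, SAMtools and mm10 are named, without roles, in the submitters' processing notes. Strand setting, annotation, versions and cell filters were not given in the sources used here. Fresh counts could be of reads or of molecules. The 36 genes and the comparison lists were chosen with earlier results of these data known. Cultures were summed to CPM with exact binomial or Poisson 95% intervals (ratios for genes with 10 or more counts, pseudocount 0.5 in medians), and cells were thinned to 4500 counts, which left out no cell. Neither doublets nor free RNA were removed. Cells were given to a mouse when they had at least 10 tag counts, at least 75% from the same tag. Tests used edgeR 4.0.16 (TMM, filterByExpr, quasi-likelihood, threshold 0.05), checked on simulated counts, with standard errors taken as the size of the log2 fold change over the root of F, and with DESeq2 1.42.0, RLE factors, library totals, no filter and left-out libraries as alternatives. Genes with the largest and smallest ratio of each role and 50 or more counts, and the 2 largest changes of each other list, were named. Every member past the threshold was named in the fresh cells, but only some of those lower than input in the precipitates. In 14 of the 36 genes another annotated gene overlaps the span, and reads there may be shared. Sequences are RefSeq's. Protein features were not used here.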

Additional observations from a re-analysis of the deposited data

How the results depend on the processing

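The median log2 ratio of BMP4 over EGF ran from -2.53 to -2.33 over the main setting and 6 alternatives. Dropping the minimum on counts could not change it, since all 36 genes passed the minimum. At least 2-fold higher with EGF were 35 of 36 genes when each cell was scaled to 10000 counts and 36 otherwise. Each culture is a single library, so there is no spread between replicates to set these shifts against. The share of cells with a transcript moved with depth, from 51.2% at 3000 counts to 94.9% unthinned with BMP4 and from 88.4% to 99.6% with EGF. When cells were split by Mki67, Top2a or Cdk1 in place of the 20 G2/M genes, the culture ratio was 3.80 in negative and 1.73 in positive cells. In the fresh cells DESeq2 called 6 and 2 members in the progenitor and neuroblast contrasts, and 3 were called in the latter from cells with 300 or more counts. By single library the median log2 ratio of the tested members was 1.94 to 2.07 for progenitor-marker and 0.56 to 1.16 for neuroblast-marker cells. These are the 19 members that passed the filter, which a rare gene passes only through a class where it is high. That choice favours a positive median. In the joint fit the median of all genes was -0.06 and -0.12. In the RIP, library totals gave medians of 0.12 against the labelled knockout, 0.63 against IgG, -2.53 for CPEB4 against input and -3.07 for IgG against input, and no filter gave -1.33 and -0.86 for the last 2. Members called against input in IgG numbered 32 with library totals and 13 with only the compared groups. Leaving out 1 library gave 10 to 14 members called in CPEB4 against input, with medians of -1.20 to -1.01, and 0 to 1 in IgG against input. A lone replicate is assumed there to vary like the other groups. The correlations of same-numbered deviations in the RIP run from -0.48 to 0.32. With 2 replicates per group they cannot show whether replicate numbers pair the samples. With the replicate number as a block, 19 members were called in CPEB4 against input and 7 in IgG against input, and 0 in the other RIP contrasts. With tag number as a replicate block, 0 members were called between mice. Ratios without shared barcodes, without Rfc4 and Mcm7, also with Chaf1a, and without the labelled knockout cells of tag 2 were alternatives chosen after seeing the data. Over all genes, no filter called 25 higher and 25 lower against the labelled knockout and 50 and 115 against IgG, and fits of only the compared groups called 157 and 377 against IgG, where the reported fits called 0. Library totals called 426 and 11176 in IgG against input in place of 3099 and 2661, and DESeq2 called 223 and 354 in the progenitor contrast in place of 382 and 595. Without wildtype CPEB4 replicate 1, 2955 and 2112 genes were called against input in place of 4678 and 4702, and leaving out an input or IgG library called 1003 to 1746 and 193 to 719 in IgG against input. Without the labelled knockout replicate 1, 0 and 4 genes were called in that contrast, and no filter or leaving out the labelled knockout mouse of tag 2 gave 1 gene between mice.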

Other observations

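Most fresh cells had no clear hash tag and belong to no mouse. The 35 genes stood at 1515 CPM in the 1746 wildtype cells without a mouse and at 2064 CPM in the 1473 such cells labelled knockout. Each value exceeded the mean of its tagged mice. Progenitor-marker cells were 5.84% and 10.3% of the cells without a mouse, and at most 3.01% of the cells of any mouse. Microglia-marker cells were 0% of the cells without a mouse and 3.35% to 9.86% of the cells of a mouse. The tagged part of each library thus differed from the rest in its classes.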
